A study of Mus musculus with 6 samples.

Results

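Membrane-bound mucins are the subject here, as the genes Muc1, Muc3, Muc4, Muc13 and Muc20, chosen by name. Of these 5 genes, 4 had a row among the 23402 gene symbols of the deposited expression table, and Muc3 was not analysed here. Only Muc4 and Muc13 reached a mean of 1 FPKM (fragments scaled to transcript length in kilobases and to library depth) over all libraries, the level required for the test across genes. RNA was sequenced from whole intestinal tissue, labelled terminal ileum, of 6 mice that were 6 weeks old and had drunk dextran sodium sulfate (DSS), a polysaccharide that injures the gut epithelium, until day 6. The 3 animals labelled KO carried the genotype Il17rafl/fl;Atoh1-cre+, and the 3 labelled WT were Il17rafl/fl;Atoh1-cre- littermates. Both groups therefore carried floxed alleles of Il17ra, a receptor subunit for interleukin-17, and both received DSS. Cre was driven by Atoh1, the gene of a transcription factor needed for goblet, Paneth and enteroendocrine cells, so most enterocytes are outside the lineage in which deletion is intended. The comparison asks how gene expression in DSS-exposed intestine differs when the receptor is targeted in secretory cells.

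Membrane-bound mucins are long glycoproteins that stay anchored in the apical membrane of epithelial cells. Their extracellular part carries dense O-linked sugars and forms the glycocalyx over the microvilli, beneath the secreted mucus that goblet cells build from Muc2. Their cytoplasmic tails bind signalling and scaffold proteins, and several members are cleaved or shed from the surface. Interleukin-17 signals to epithelial cells mainly through NF-kB and C/EBP factors.

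Some facts of the libraries bear on every value below. Il17ra was not lower in the libraries labelled KO, with 7.93, 8.36 and 6.07 FPKM against 6.04, 5.91 and 6.53 FPKM in those labelled WT. In whole tissue these values include cells outside the targeted lineage, so deletion limited to that lineage need not show in them. The labels were thus not checked by the targeted gene, and each direction is that of the libraries as labelled. The tissue label was also not borne out by all of its markers. Slc10a2 and Fabp6, the bile acid carrier and bile acid binding protein that define ileal enterocytes, stood between 0.0669 and 1.94 FPKM and between 0.316 and 9.79 FPKM over the 6 libraries. Gata4, a factor of the proximal small intestine, averaged 44.8 ± 6.70 FPKM in libraries labelled KO and 42.7 ± 3.65 FPKM in those labelled WT (SD, n = 3 each). Lct, the lactase gene, which is likewise higher proximally, stood between 188 and 419 FPKM. General epithelial genes were abundant, for example Krt8 at a mean of 969 FPKM. Depth, estimated from the spacing of low values, ran from 7870000 to 9260000 fragments per library.

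The 4 listed genes differed widely in level, and the order was Muc13, Muc4, Muc1 and Muc20 within each of the 6 libraries. FPKM values are per length of transcript, so these levels can be set side by side. The ranges of Muc13, Muc4 and Muc1 over the libraries did not overlap each other. Those of Muc1, from 0.0552 to 0.305 FPKM, and Muc20, from 0 to 0.0901 FPKM, did overlap. In the library labelled KO 3 both rested on 1 fragment, so the order of these 2 genes was not resolved there. Muc13 alone made up between 96.1% and 98.6% of the FPKM summed over the 4 genes.

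**Figure D1:**
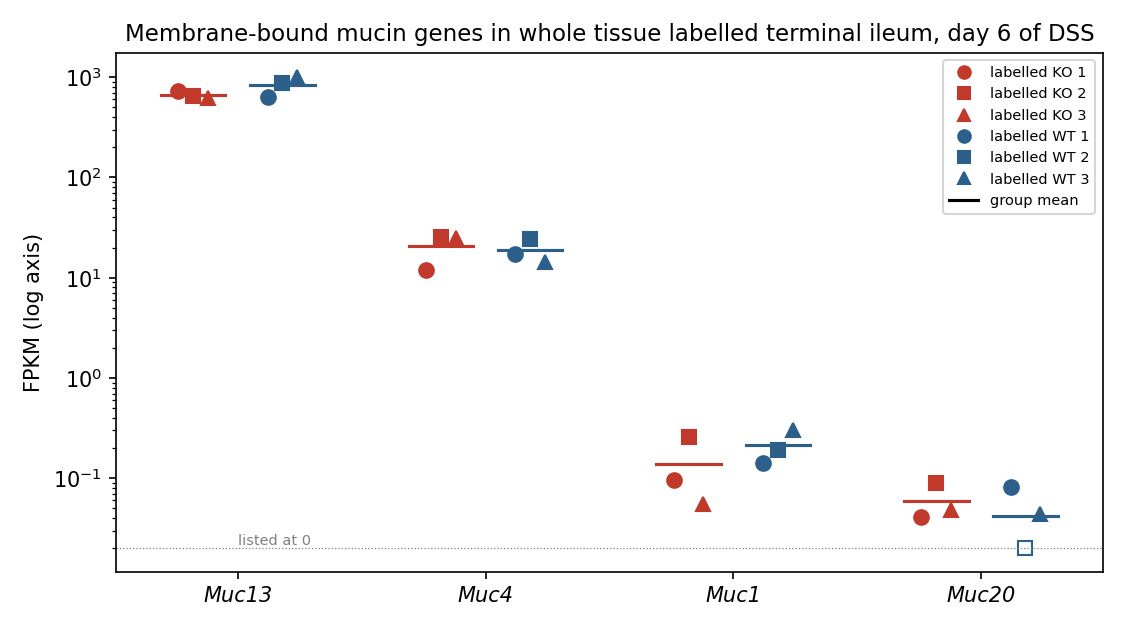
FPKM of Muc13, Muc4, Muc1 and Muc20 on a log axis in each library, with libraries labelled KO in red to the left of those labelled WT in blue and bars at the group means. Muc13 lies between 615 and 1014 FPKM and Muc20 at or below 0.0901 FPKM, and the groups overlap for every gene; the open symbol is a value listed at 0.

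Muc4, Muc20 and Muc13 lie on the same chromosome. In the GENCODE M21 annotation of GRCm38, Muc4 occupies chr16:32735886-32782391 on the plus strand and Muc20 chr16:32777419-32797435 on the minus strand, so their 3' ends face each other and overlap by 4973 bases. Of these, 627 bases are exonic in both genes, which is 15.6% of the exonic bases of Muc20 and 5.33% of those of Muc4. No source used here says whether counting took strand into account, so fragments in the shared bases may be assigned to either gene. Muc20 held no more than 2 fragments in any library, so few can have been assigned to it. Whether those few came from Muc4 was not tested. Muc13 lies 996601 bases beyond Muc20, at chr16:33794037-33819934 on the plus strand. Muc1 lies at chr3:89229057-89233381 on the plus strand.

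The 250 bases before the annotated start are shown for all 4 listed genes (RefSeq, GRCm38.p6, written 5' to 3' along the gene's own strand), because the genes differ so widely in level while lying in part side by side. Capitals mark matches to any of 6 motifs that were searched. The windows are chr16:33793787-33794036 for Muc13, chr16:32735636-32735885 for Muc4, chr3:89228806-89229055 for Muc1, all on the plus strand, and chr16:32797436-32797685 on the minus strand for Muc20.
Muc13: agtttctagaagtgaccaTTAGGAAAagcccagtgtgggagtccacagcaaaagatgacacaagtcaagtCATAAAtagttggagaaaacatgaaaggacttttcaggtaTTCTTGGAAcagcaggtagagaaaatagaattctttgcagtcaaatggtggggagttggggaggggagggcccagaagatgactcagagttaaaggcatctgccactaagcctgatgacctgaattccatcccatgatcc
Muc4: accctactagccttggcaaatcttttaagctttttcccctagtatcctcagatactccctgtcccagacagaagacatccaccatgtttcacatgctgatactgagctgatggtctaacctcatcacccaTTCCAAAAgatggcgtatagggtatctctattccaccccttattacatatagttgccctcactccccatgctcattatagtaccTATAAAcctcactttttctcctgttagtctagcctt
Muc1: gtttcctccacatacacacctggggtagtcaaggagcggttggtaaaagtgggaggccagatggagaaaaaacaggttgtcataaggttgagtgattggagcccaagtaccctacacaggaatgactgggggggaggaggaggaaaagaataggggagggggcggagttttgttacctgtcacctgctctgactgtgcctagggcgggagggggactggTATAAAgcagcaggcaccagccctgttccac
Muc20: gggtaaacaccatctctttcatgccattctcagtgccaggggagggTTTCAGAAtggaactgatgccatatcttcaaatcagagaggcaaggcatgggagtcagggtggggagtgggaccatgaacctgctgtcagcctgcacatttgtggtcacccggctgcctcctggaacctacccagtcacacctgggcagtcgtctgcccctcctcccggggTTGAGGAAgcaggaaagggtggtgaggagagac

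The core promoter motif TATAAA, known as the TATA box, was searched along the gene's strand only. The motif GTTAAT of HNF1 factors, TTTATG of CDX factors, TTCNNNGAA of STAT factors and TTNCNNAA of C/EBP factors, and the NF-kB consensus, were searched on both strands. The upstream Muc13 window held a CDX match from 180 to 175 bases before the start, a STAT match from 140 to 132 bases before it and a C/EBP match from 232 to 225 bases before it. A further annotated start of Muc13 lies downstream, and the 250 bases before that start held an HNF1 and a C/EBP match. The Muc4 window held a TATA box from 36 to 31 bases and a C/EBP match from 120 to 113 bases before the start. The Muc1 window held a TATA box from 31 to 26 bases before the start and no other of these motifs. The Muc20 window held C/EBP matches from 204 to 197 and from 33 to 26 bases before the start. No matches overlapped in these windows. Among 32851 windows of this length in the RefSeq table, 7.59% held the TATA box, 6.43% the HNF1, 10.8% the CDX, 7.02% the STAT, 36.8% the C/EBP and 3.9% the NF-kB motif. The matches describe letters only, and which start these tissues use was not measured.

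Muc13, a small transmembrane mucin with epidermal growth factor-like domains that is abundant along the intestinal surface, was among the most highly expressed genes of the table. It ranked between 46 and 114 of the 23402 symbols in each library. Its level was 736, 647 and 615 FPKM in the libraries labelled KO 1, 2 and 3, against 635, 877 and 1014 FPKM in those labelled WT 1, 2 and 3. The groups overlapped, because the library labelled WT 1 lay between KO 3 and KO 2, while WT 2 and WT 3 were the highest of the 6. The means were 666 ± 62.5 FPKM in libraries labelled KO and 842 ± 192 FPKM in those labelled WT (SD, n = 3 each). On the log2(FPKM + 1) scale the fold change was -0.32 (SE 0.20, 95% interval -0.78 to 0.15), and limma gave an adjusted p of 0.998. By exact permutation of the FPKM values between groups, the two-sided p was 0.3, and groups of 3 cannot give less than 0.1. The difference was thus within the spread between animals, and the interval includes both no difference and a fall of 0.78 on the log2 scale. Its size depended on single libraries. Without WT 1 the log2 fold change was -0.51 (limma unadjusted p = 0.0127, adjusted p = 0.850), and without WT 3 it was -0.17 (adjusted p = 1.00).

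Muc4, a very large transmembrane mucin whose extracellular part binds the receptor kinase ErbB2, was the second gene above the filter. Its level was 11.9, 25.5 and 24.7 FPKM in the libraries labelled KO 1, 2 and 3, against 17.2, 24.5 and 14.4 FPKM in those labelled WT 1, 2 and 3. The values fell inside each other's range: KO 1 was the lowest and KO 2 the highest of all 6, and WT 2 was close to KO 2 and KO 3. The means were 20.7 ± 7.62 FPKM in libraries labelled KO and 18.7 ± 5.21 FPKM in those labelled WT (SD, n = 3 each). The log2 fold change was 0.10 (SE 0.30, 95% interval -0.60 to 0.79, limma adjusted p = 0.998), and exact permutation gave a two-sided p of 0.8. The sign of this estimate was not stable. Without KO 1 it was 0.44 (adjusted p = 0.725), without WT 2 it was 0.30 (adjusted p = 1.00), and it was below 0 without KO 2 (-0.08), KO 3 (-0.06) or WT 3 (-0.06). Muc4 varied more than Muc13 over the 6 libraries, with a coefficient of variation of 30.1% against 21.2%.

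None of the 2 tested mucins passed the threshold of an adjusted p of 0.05 in limma, where 0% of all 12695 tested genes did. At an unadjusted p under 0.05 the count was likewise 0 of 2, against 3.62% of all tested genes. Neither was called by limma with array weights, with robust estimation or without the intensity trend. Of the 4 listed mucins, 0 had groups that did not overlap, and 8.37% of all tested genes had such groups.

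Muc1, the transmembrane mucin whose tail binds beta-catenin and Src, was at a trace level. It measured 0.0961, 0.261 and 0.0552 FPKM in the libraries labelled KO 1, 2 and 3, against 0.141, 0.193 and 0.305 FPKM in those labelled WT 1, 2 and 3. After allowing for depth, these values fell on whole multiples of 1 fragment to within 0.0102 of a fragment, at 2, 5 and 1 fragments in libraries labelled KO and 3, 4 and 6 in those labelled WT. The group totals were 8 and 13 fragments in libraries labelled KO and WT. The groups overlapped, since KO 2 lay above WT 1 and WT 2, and exact permutation of the FPKM values gave a two-sided p of 0.4.

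Muc20, a transmembrane mucin known to bind the hepatocyte growth factor receptor Met, was lower still. It measured 0.0415, 0.0901 and 0.0477 FPKM in the libraries labelled KO 1, 2 and 3, against 0.0812, 0 and 0.0439 FPKM in those labelled WT 1, 2 and 3. These values corresponded to 1, 2 and 1 fragments in libraries labelled KO and to 2, 0 and 1 in those labelled WT, all under the 3 fragments that a count of 0 allows. No fold was formed, and exact permutation gave a two-sided p of 0.5. A difference between the groups was not detectable at this depth for Muc1 or Muc20, and intervals and floors of this kind cover counting error only.

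**Figure D2:**
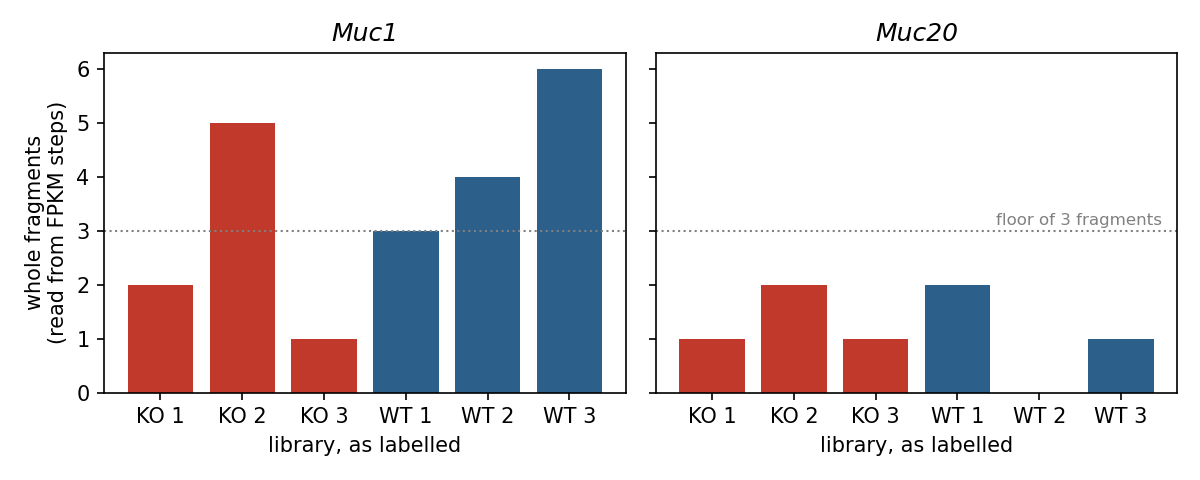
Whole fragments behind the FPKM of Muc1 and Muc20 in each library, read from the steps of the low values, with libraries labelled KO in red and those labelled WT in blue. Muc1 rests on 1 to 6 fragments per library and Muc20 on 0 to 2, and the dotted line marks 3 fragments.

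Muc13 and Muc4 differed from each other in how they varied over the libraries. The Muc13 to Muc4 ratio of FPKM was 61.9, 25.4 and 24.9 in the libraries labelled KO 1, 2 and 3, against 36.9, 35.8 and 70.3 in those labelled WT 1, 2 and 3. It was thus highest in KO 1 and WT 3, one library of each group. Those 2 libraries also had the highest summed FPKM of 10 markers of villus enterocytes, the absorptive cells of the epithelium. That sum was 13439.5, 7498 and 6357 FPKM in the libraries labelled KO 1, 2 and 3, against 7963, 9681 and 14019.5 FPKM in those labelled WT 1, 2 and 3. Of the 10 markers, 1 had a higher mean in libraries labelled KO and 9 a lower one, and none was at 0 in all libraries. This count takes no account of size. The means in libraries labelled KO and WT were 286 ± 119 and 287 ± 70.3 FPKM for Lct, and 1639 ± 340 and 1665 ± 355 FPKM for Anpep. Slc10a2 and Fabp6 were low in all libraries. Apoa1 was the most abundant and gave 5747 FPKM of the sum in KO 1. Muc13 was lowest in KO 3, where this sum was also lowest, and highest in WT 3, where it was highest. The orders differed in between, since KO 1 had a larger sum than WT 2 but less Muc13 (736 against 877 FPKM). Muc4 was lowest in KO 1 and WT 3, the libraries with the largest sums. The part of these markers in the mucin values was not tested, and in whole tissue fewer cells of a type and less RNA per cell cannot be told apart.

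Markers of other cells were summed in the same way. B cell markers summed to 88.2, 109 and 15.4 FPKM in the libraries labelled KO 1, 2 and 3, against 20.8, 16.6 and 9.91 FPKM in those labelled WT 1, 2 and 3. The sums in KO 1 and KO 2 lay above those of the other 4 libraries. The part of these markers in the mucin values was not tested, and in KO 3, whose sum lay within the WT range, Muc13 was at 615 FPKM and Muc4 at 24.7 FPKM. Markers of goblet cells, which can also express membrane mucins, summed to 8066, 6931 and 6305 FPKM in the libraries labelled KO 1, 2 and 3, against 7183, 7029 and 7626 FPKM in those labelled WT 1, 2 and 3. As with the villus enterocyte markers, KO 1 and WT 3 had the highest sums and KO 2 and KO 3 the lowest. The goblet markers did not all follow their sum. Of these 7 markers, 2 had a higher mean in libraries labelled KO and the rest a lower one. The 2 were Muc2 (400 against 341 FPKM in libraries labelled WT) and Fcgbp (999 against 862 FPKM). Markers of the follicle-associated epithelium and its M cells summed to 205 ± 28.9 FPKM in libraries labelled KO and 190 ± 29.1 FPKM in those labelled WT. Of these 10 markers, 7 had a higher mean in libraries labelled KO. Pglyrp1, the most abundant, had a lower one (97.2 against 114 FPKM). Clu measured 49.1, 36.7 and 3.62 FPKM in KO 1, 2 and 3, against 6.00, 3.85 and 6.73 FPKM in WT 1, 2 and 3. Spib measured 8.35, 10.5 and 2.00 FPKM, against 2.85, 2.28 and 2.40 FPKM. Clu and Spib were thus highest in KO 1 and KO 2, like the B cell markers.

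The genes whose profiles lay closest to each mucin were found by the root mean square (RMS) difference over the 6 libraries, after each gene's own mean of log2(FPKM + 1) was subtracted. For Muc13, whose own RMS deviation was 0.27, the closest of 11527 genes were Ceacam1, a cell adhesion receptor of the microvillus glycocalyx (RMS difference 0.05), Ept1, a phospholipid synthesis enzyme (0.06), and Ttc22, a tetratricopeptide repeat gene (0.06). Ceacam1 measured 221, 202 and 189 FPKM in the libraries labelled KO 1, 2 and 3, against 177, 266 and 299 FPKM in those labelled WT 1, 2 and 3. As with Muc13, WT 2 and WT 3 were the highest libraries and WT 1 lay inside or below the KO range. For Muc4, whose own RMS deviation was 0.40, the closest were the DNA helicase gene Pif1, the enteroendocrine progenitor factor gene Neurog3 and the histone gene Hist1h2bl (RMS difference 0.14 each). Neurog3 measured 0.803, 1.82 and 2.17 FPKM in the libraries labelled KO 1, 2 and 3, against 1.43, 1.83 and 0.921 FPKM in those labelled WT 1, 2 and 3. Like Muc4, it was lowest in KO 1 and WT 3. Over 6 libraries this likeness is a description only.

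**Figure D3:**
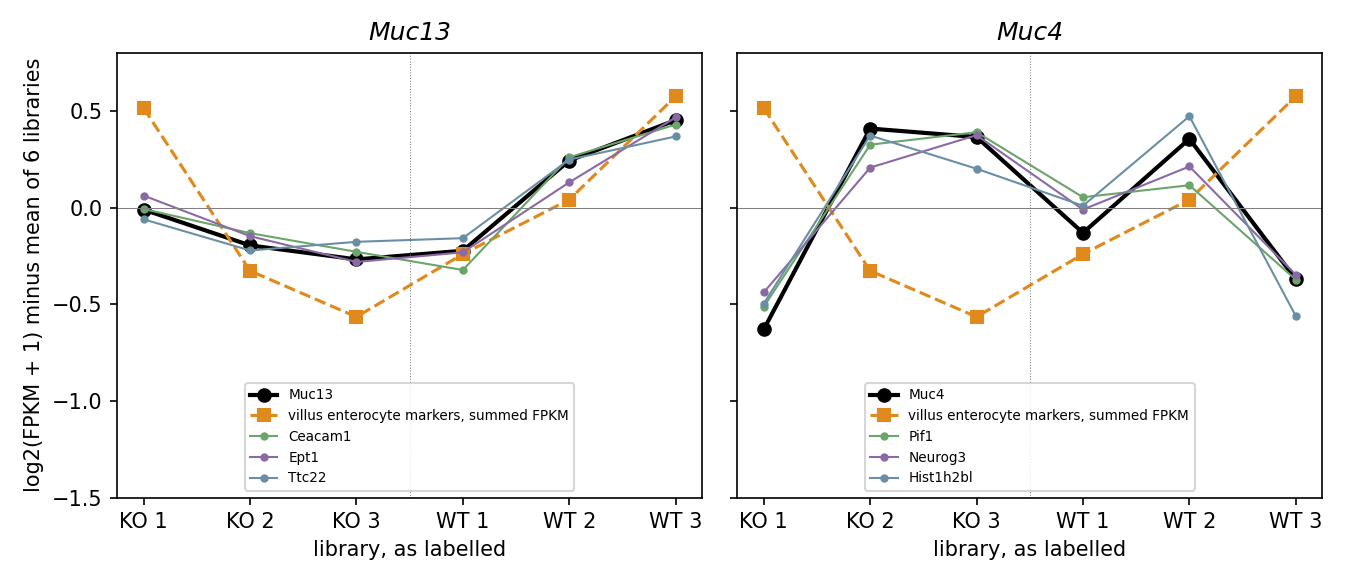
Deviation of log2(FPKM + 1) from the mean of the 6 libraries for Muc13 (left) and Muc4 (right) in black, the 3 genes with the closest profiles, and the summed villus enterocyte markers (dashed orange). Muc13 is highest in WT 3 and lowest in KO 3, like the markers, while Muc4 is lowest in KO 1 and WT 3, where the markers are highest.

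Set against the secreted mucin Muc2 within each library, Muc13 had a smaller ratio in all 3 libraries labelled KO. Muc2, the gel-forming mucin of goblet cells, measured 416, 407 and 375 FPKM in the libraries labelled KO 1, 2 and 3, against 277, 347 and 399 FPKM in those labelled WT 1, 2 and 3. The Muc13 to Muc2 ratio was 1.77, 1.59 and 1.64 in libraries labelled KO 1, 2 and 3, against 2.29, 2.53 and 2.54 in those labelled WT 1, 2 and 3. The groups did not overlap, the means were 1.67 ± 0.0942 and 2.45 ± 0.142 in libraries labelled KO and WT (SD, n = 3 each), and exact permutation gave a two-sided p of 0.1, the smallest it can give here. This ratio, chosen after its values were seen, was not particular to Muc13, because 10.8% of all tested genes had a ratio to Muc2 that was lower in all libraries labelled KO. When every gene was set against Muc2 in this way, limma gave Muc13 a log2 fold change of -0.56 (SE 0.26, adjusted p = 0.797), beside a median of -0.21 over all tested genes and 0.03 with the values as deposited. Set against each of 10 general epithelial genes, the mean Muc13 ratio was lower in libraries labelled KO for all 10. All 10 ratios share the same Muc13 values, whose mean was already lower in libraries labelled KO. They are therefore not separate observations, and the count adds no support to a difference in Muc13. The groups separated for 1 of these 10 genes, Ezr, which encodes the microvillus linker protein ezrin. Its ratios were 2.35, 3.50 and 3.58 in libraries labelled KO 1, 2 and 3, against 3.87, 3.996 and 4.11 in those labelled WT 1, 2 and 3. Ezr was singled out after its values were seen, and 1.23% of all tested genes had a ratio to Ezr that was lower in all libraries labelled KO. Ezr itself measured 314, 185 and 172 FPKM in the libraries labelled KO 1, 2 and 3, against 164, 220 and 247 FPKM in those labelled WT 1, 2 and 3, so its own spread enters these ratios. The Muc4 to Muc2 ratio averaged 0.0523 ± 0.0206 in libraries labelled KO and 0.0563 ± 0.0179 in those labelled WT (SD, n = 3 each).

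Other mucins gave no called difference. Of 12 further membrane-bound mucins and mucin-like proteins, 7 had a row and 6 were tested, of which 0 passed the adjusted threshold in limma and 0 had an unadjusted p under 0.05. Their median log2 fold change was 0.04, beside 0.03 over all tested genes. The most abundant was Cd164, a sialomucin found on many cell types, at 108 ± 3.67 FPKM in libraries labelled KO and 115 ± 5.68 FPKM in those labelled WT (SD, n = 3 each). Parm1, a mucin-like membrane protein, averaged 12.1 ± 0.801 FPKM in libraries labelled KO and 10.4 ± 0.447 FPKM in those labelled WT (log2 fold change 0.20, limma unadjusted p = 0.0683). Its groups did not overlap, as was the case for 8.37% of all tested genes. Tmem123 had a log2 fold change of 0.17. Muc15 was listed at 0 in all libraries. Of the 5 secreted mucins, Muc2 alone reached the filter.

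Genes that build the O-linked sugars of mucins were mostly close to 0 in their fold changes. Of 12 tested polypeptide GalNAc-transferases, which place the first sugar, 7 estimates were above 0 and 5 below (median log2 fold change 0.01), and 0 passed the adjusted threshold. Galnt1, the most abundant, averaged 51.4 ± 2.13 FPKM in libraries labelled KO and 51.2 ± 0.639 FPKM in those labelled WT. The smallest unadjusted p values were those of Galnt15 (log2 fold change 0.46, limma unadjusted p = 0.0334) and Galnt3 (-0.21, 0.0860). The groups of Galnt15 did not overlap, with libraries labelled KO higher, as was the case for 732 of all 12695 tested genes. Of 21 tested genes for the extension and capping of sugar chains, not all of them particular to O-linked ones, 11 estimates were above 0 and 10 below (median 0.02), and 0 passed. B3gnt3, which extends core O-glycans, measured 43.0, 45.8 and 50.3 FPKM in the libraries labelled KO 1, 2 and 3, against 56.8, 73.5 and 72.7 FPKM in those labelled WT 1, 2 and 3. Its groups did not overlap, as was the case for 8.37% of all tested genes, and its limma adjusted p was 0.998 (unadjusted p = 0.00324, log2 fold change -0.53). Of this list, B3gnt3 alone separated with libraries labelled KO lower, and B3gnt5 alone with them higher. Over all 12695 tested genes, 330 separated with libraries labelled KO lower and 732 with them higher. B3gnt5, a glycosyltransferase gene, had 1.64, 2.09 and 0.821 FPKM in the libraries labelled KO 1, 2 and 3, against 0.750, 0.770 and 0.621 FPKM in those labelled WT 1, 2 and 3 (log2 fold change 0.52, limma unadjusted p = 0.0349). Its highest values were in KO 1 and KO 2, the libraries with the highest B cell marker sums, and the part of B cells in this value was not tested. St3gal4, a sialyltransferase and the most abundant gene of this list, averaged 549 ± 61.7 FPKM in libraries labelled KO and 584 ± 28.0 FPKM in those labelled WT (SD, n = 3 each).

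Genes for proteins that cut or bind membrane mucins were likewise not called. The 8 sheddases and their regulators, all tested, had a median log2 fold change of 0.03 and a range of -0.06 to 0.11. Adam10, a sheddase and the most abundant of them, averaged 48.6 ± 2.03 FPKM in libraries labelled KO and 50.7 ± 3.1 FPKM in those labelled WT (SD, n = 3 each), and Mmp14 and Adam17 had log2 fold changes of 0.11 and 0.07. Of 6 tested receptor kinases bound by mucins, 2 estimates were above 0 and 4 below (median -0.04). Erbb3, the partner receptor of ErbB2, averaged 128 ± 40.5 FPKM in libraries labelled KO and 138 ± 13.1 FPKM in those labelled WT, and Met and Fgfr3 had log2 fold changes of -0.12 and 0.12. Of 16 tested partners of mucin tails, 4 estimates were above 0 and 12 below (median -0.04), and 0 passed. Over all 12695 tested genes, 7414 estimates were above 0 and 5281 below. Among the 16 tail partners, the smallest p values were those of the sodium-proton exchanger gene Slc9a3 (log2 fold change -0.34) and Pdzk1, a microvillus scaffold (-0.41). Pdzk1 measured 92.9, 56.2 and 43.1 FPKM in the libraries labelled KO 1, 2 and 3, against 63.1, 74.8 and 114 FPKM in those labelled WT 1, 2 and 3, so that KO 1 and WT 3 were again the highest of their groups. The scaffold gene Slc9a3r1 had a log2 fold change of -0.16.

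Most genes of the microvillus surface itself had estimates below 0, and none was called. Of 16 tested, 5 estimates were above 0 and 11 below, beside 7414 above and 5281 below over all 12695 tested genes. The median log2 fold change was -0.15 beside 0.03 over all tested genes, and 0 of the 16 passed the adjusted threshold or an unadjusted p of 0.05 in limma. Several of the 16, Cdhr2 and Pls1 among them, were highest in KO 1 and WT 3, as was the villus enterocyte marker sum. The 16 estimates are therefore not separate observations. Calml4, a light chain of the intermicrovillar adhesion complex, averaged 167 ± 14.6 FPKM in libraries labelled KO and 193 ± 13 FPKM in those labelled WT (SD, n = 3 each), while Myo7b, the motor of that complex, averaged 115 ± 14.5 FPKM and 100.3 ± 7.5 FPKM in libraries labelled KO and WT. Lgals4, a lectin gene and the most abundant of the list, averaged 1349 ± 99.98 FPKM in libraries labelled KO and 1468 ± 98.2 FPKM in those labelled WT. The 10 general epithelial genes had a median of -0.02, with Cdh1 at 0.12 and Cldn7 at -0.12. The 21 transcription factors tied to mucin genes, all tested, had a median of -0.02, with the enterocyte factor Hnf4a at -0.03, Stat3 at -0.20 and the goblet cell factor Spdef at 0.17, and 0 of them passed.

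**Figure D4:**
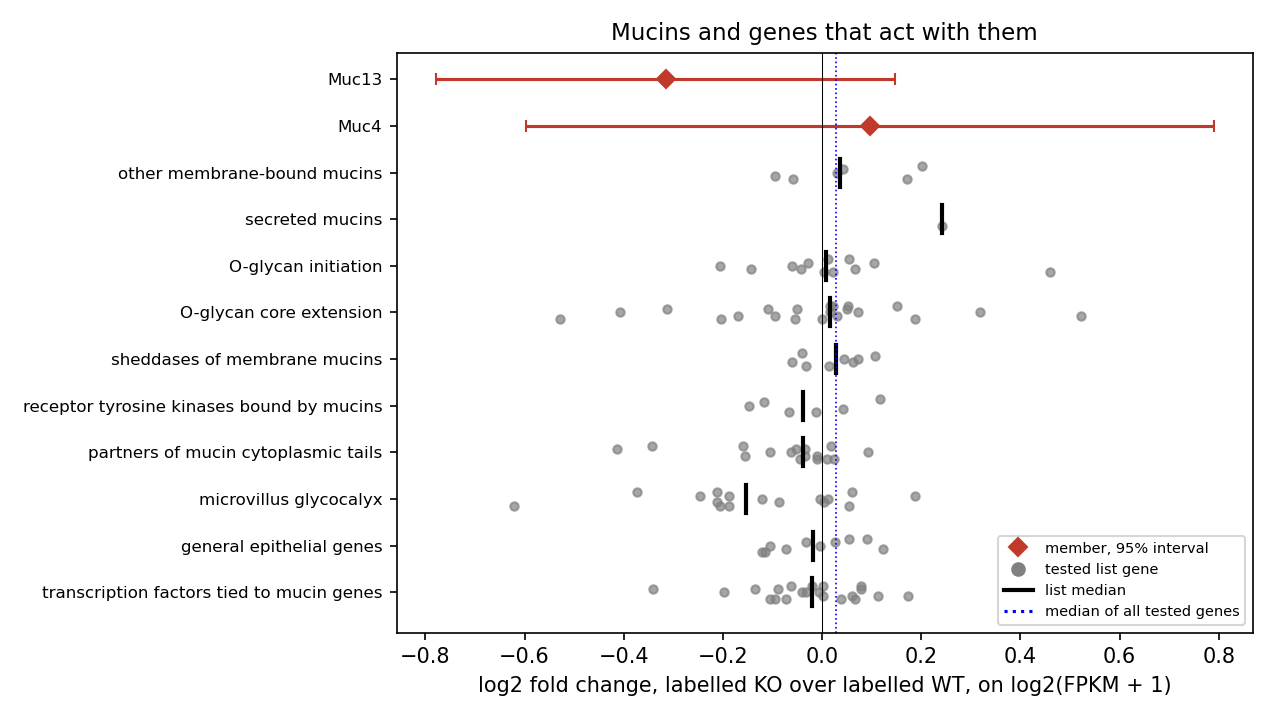
Log2 fold changes (labelled KO over labelled WT, on the log2(FPKM + 1) scale) of Muc13 and Muc4 with 95% intervals in red, and of the tested genes of each list in grey, with list medians in black and the median of all tested genes as a dotted line. The Muc13 estimate of -0.32 lies below the list medians, which run from -0.15 to 0.24, and both mucin intervals include 0.

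**Figure D5:**
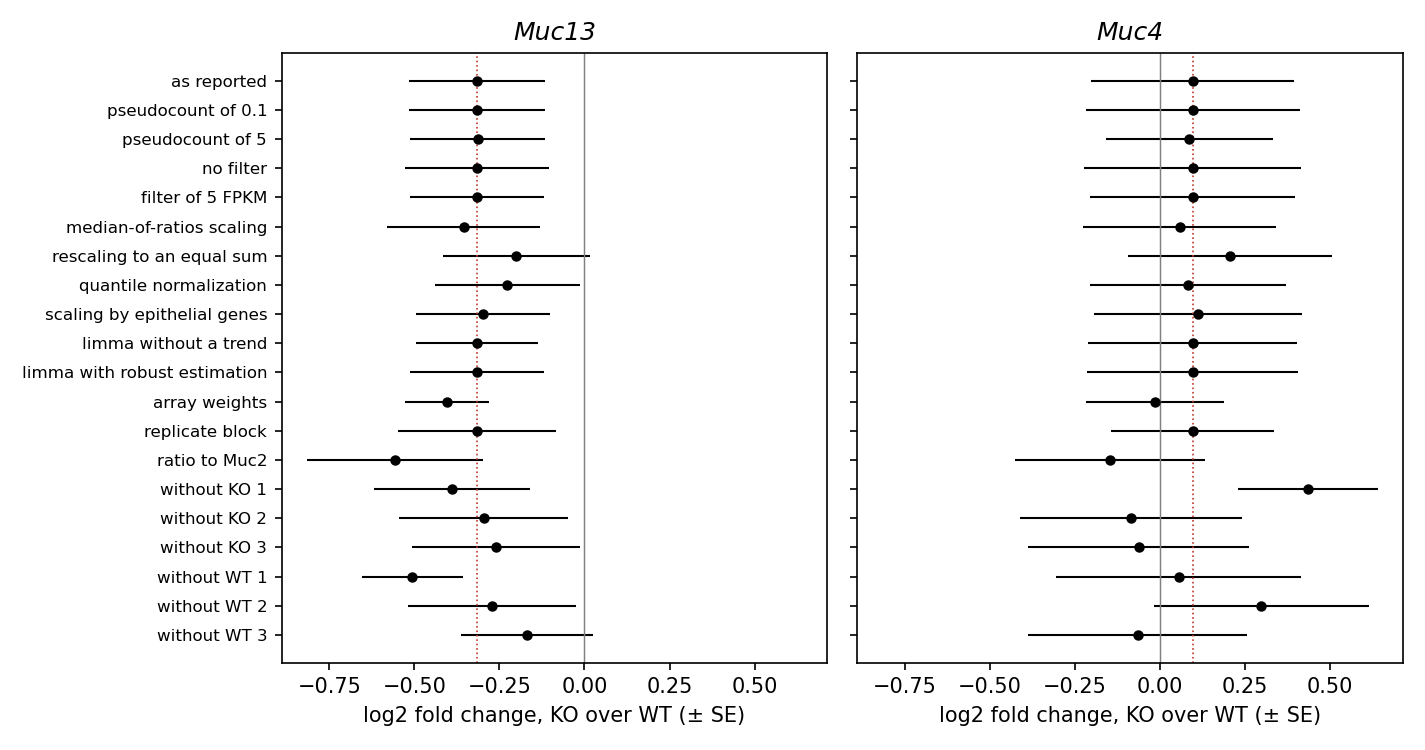
Log2 fold changes (labelled KO over labelled WT, ± SE) of Muc13 (left) and Muc4 (right) as reported and under each alternative treatment of the data, down the page. The Muc13 estimates run from -0.56 (relative to Muc2, where the median of all tested genes is -0.21) to -0.17, all below 0, while those of Muc4 run from -0.15 to 0.44 and change sign.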

How the data were processed

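RNA from whole tissue of 6 mice, 1 library each, was sequenced from directional libraries, per the labels' protocols. STAR, Cufflinks and Cuffnorm, with the quality and file tools FastQC, Trimmomatic, SAMtools and bedtools and the builds GRCm38 and mm10, are named in the submitters' processing notes; their versions, settings and use of strand are not given there. The authors deposited FPKM values, to which a count model does not apply. How Cufflinks shared fragments within the repeated mucin domains could change these levels. Columns were matched to samples by genotype and number.

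The 12695 genes whose mean reached 1 FPKM were tested together, two-sided, on log2(FPKM + 1) by the moderated test of limma 3.58.1 (R 4.3.3) with an intensity trend. P-values were adjusted by Benjamini-Hochberg, and calls needed an adjusted p under 0.05. This scale understates the change of low genes. On simulated data with these 12695 genes, the test recovered 37.0%, 70.7% and 95.5% of genes changed 1.5-fold, 2-fold and 4-fold. Each simulated run changed 200 genes and drew normal noise for each gene independently. The rates are averages over genes and do not give the chance of a call for Muc13 or Muc4 in these libraries. Single genes were compared by exact permutation (scipy 1.17.1). Relative depth came from the commonest ratio of low values, and whole fragments were accepted within 0.05 of a fragment. The labels name separate animals.

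The named genes were the members, the 3 genes with the closest profile to each tested member, and from each list the most abundant gene and the 2 with the smallest p. The profile search skipped predicted, ribosomal, mitochondrial and sex-linked genes. Genes named outside this rule (Il17ra, Gata4, Lct, Slc10a2, Fabp6, Ezr and Muc15 among them) were chosen after their values were seen. The members and lists were chosen with earlier results of these data known.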

Additional observations from a re-analysis of the deposited data

How the results depend on the processing

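Muc13 kept its direction and stayed short of the threshold under all 19 alternatives (log2 fold change -0.56 to -0.17, adjusted p 0.136 to 1.00), among them -0.51 to -0.17 with 1 library left out. Muc4 turned in sign with array weights (-0.015) and relative to Muc2 (-0.15, chosen after the data were seen), and ran from -0.084 to 0.44 with 1 library left out; the cause was not tested. For Muc1 the difference in mean FPKM ran from -0.14 to -0.03 with 1 library left out, and for Muc20 from -0.0028 to 0.0378. The summed FPKM of the 4 mucins had a ratio of 0.798 between libraries labelled KO and WT, and 0.711 to 0.884 with 1 library left out. The count of genes called was 0, and it was 2 with a pseudocount of 0.1, with one of 5 or after rescaling to an equal sum, 3 with scaling by epithelial genes, 24 with array weights, 38 relative to Muc2, 1 with the replicate block and 0 to 41 with 1 library left out (41 without KO 3). Neither tested mucin was among them. The median of all tested genes was 0.13 after rescaling to an equal sum and -0.21 relative to Muc2, beside 0.03 as deposited, and Muc13 was at -0.20 and -0.56 there. With the replicate block the Muc13 adjusted p was 0.999 and that of Muc4 0.999. Same-numbered libraries shared only a number: their deviations from the group means correlated at -0.13, 0.03 and -0.11. Muc1 and Muc20 were below the filter, so the alternatives on the pseudocount, the stricter filter, trend, robust estimation and weights were not run for them, and none was run for Muc3. Depth limits Muc1 and Muc20, at no more than 6 fragments per library.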
